A study of Mus musculus with 24 samples.

Results

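The genes described here are the tenascins Tnc and Tnxb and 8 other genes of secreted matrix proteins that act as signals to cells: Postn, Sparc, Fn1, Thbs1, Thbs2, Ctgf, Cyr61 and Spp1. They were chosen by name, with a rise of Tnc in irradiated SPRET/EiJ tissue already seen in these data as the starting point, and every array probe carrying one of these gene names was taken. That gave 12 probes for 10 of the 34797 gene names on the array, with a pair of probes each for Tnc and Sparc and 1 probe for each of the other 8 genes. Mammary gland RNA of female mice was measured after low-dose ionizing radiation (LDIR), given once to the whole body as 10 cGy of X-rays at 8 to 9 weeks of age, or after sham exposure. The BALB/c groups were LDIR and sham at each of 2, 4 and 8 weeks after exposure, and the SPRET/EiJ groups were LDIR and sham at 4 weeks. Each of these 8 groups had 3 mice, labelled A to C, with 1 single-colour Agilent array per mouse (24 arrays, 55681 probes that are not controls). BALB/c mice are inbred laboratory mice of Mus musculus. SPRET/EiJ mice are inbred too but descend from another wild species, Mus spretus. The probes were designed on the reference mouse sequence, so levels in SPRET/EiJ can also reflect sequence differences under a probe. The study asked which transcripts LDIR changes in a sensitive and in a resistant strain.

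Matricellular proteins are secreted into the extracellular matrix but mainly tune how cells attach to it, respond to growth factors and move, rather than bearing load. Most are low in resting adult tissue and rise during development, wound repair and the stromal reaction around tumors. Tenascin-C is the classic example in the mammary gland, where it surrounds the growing buds of the embryo and returns in tumor stroma, whereas tenascin-X, the product of Tnxb, organizes collagen in loose connective tissue.

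The probe sequences of the genes on which the results turn are shown because both Tnc probes read different parts of the transcript and gave different pictures. The first Tnc probe covers chr4:63674248-63675011 on the minus strand (mm9) and the second chr4:63643728-63643787 on the same strand. The first interval is 704 bases longer than the probe, so that probe joins bases of separate exons. The Tnxb probe lies at chr17:34856502-34856561 (plus strand) and the Thbs2 probe at chr17:14804526-14805789 (minus strand), the latter again across separate exons. The Spp1 probe at chr5:104868502-104868561 (plus strand) is in lower case except for the codons of the integrin-binding motif that thrombin cleavage exposes in osteopontin.
Tnc first probe: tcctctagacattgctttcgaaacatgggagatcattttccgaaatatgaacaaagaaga
Tnc second probe: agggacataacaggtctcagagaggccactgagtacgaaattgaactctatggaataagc
Tnxb: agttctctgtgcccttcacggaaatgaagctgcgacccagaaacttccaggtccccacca
Thbs2: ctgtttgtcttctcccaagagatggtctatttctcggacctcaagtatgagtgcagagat
Spp1: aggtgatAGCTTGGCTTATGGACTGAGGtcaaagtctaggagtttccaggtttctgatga

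A level is the log2 intensity of a probe minus the 75th percentile of its array, so 0 marks a probe at that percentile. Levels of different probes are not comparable with each other. The share of probes well above background ran from 58.2% on the array of SPRET/EiJ LDIR mouse C to 73.4%. On all 24 arrays 10 of the 12 member probes were well above background. The first Tnc probe was so on 18 arrays and the second on 7. The lowest level called well above background ranged from -6.40 to -4.50 between arrays, and a Tnc level near or under it is uncertain. Where no array of the dimmer group was well above background, its levels under that value were raised to it, giving a floored fold. A floored fold is no strict lower limit, since a probe can lie above that value without being called. Differences were tested with limma on all probes. A probe was counted as changed at the study's thresholds, a change over 1.5-fold with an unadjusted p under 0.05 after LDIR or under 0.001 between strains. These p-values set a difference of means against the spread between mice of a group, which limma moderates with the spread of all probes. An exact permutation test of 3 arrays against 3 cannot go below 0.1. In bulk tissue, fewer cells of a type and less RNA per cell cannot be told apart.

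Lymphocyte genes set 3 arrays apart. The mean of 6 lymphocyte markers stood 4.68 above its mean over the 24 arrays in BALB/c 8 weeks sham mouse A, 5.05 above it in BALB/c 8 weeks LDIR mouse B and 4.42 above it in SPRET/EiJ LDIR mouse A. On the other 21 arrays it lay between -1.12 and 0.01. On all 3 of these arrays Tnxb, Postn, Thbs2, both Sparc probes, Fn1 and Cyr61 were the lowest of their group, and the first Tnc probe was the highest. The second Tnc probe was the highest of its group on 2 of them and the lowest on 1. The values they move most are given with and without them. None of 8 fibroblast markers, nor of 8 luminal epithelial ones, was below background on all arrays of a group.

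Neither Tnc probe was well above background in SPRET/EiJ sham tissue. In SPRET/EiJ sham tissue the first probe read -7.53, -7.43 and -5.49, and none of these was well above background. In SPRET/EiJ LDIR tissue it read -3.25, -4.28 and -3.43, all well above background. The groups did not overlap, and these 3 LDIR arrays included the highest value of all 24. The group means were -6.82 ± 1.15 (SD, n = 3) and -3.65 ± 0.55 (SD, n = 3), a log2 difference of 3.16. Sham mouse C, at -5.49, lay above the lowest level called well above background on its array (-5.77) without being called. With the lower sham levels raised to the lowest such level on their arrays, the floored rise was 3.69-fold, which is no strict lower limit. The difference between these SPRET/EiJ groups is the one for which Tnc was chosen, so no test of it is given. Without LDIR mouse A, the array high in lymphocyte genes, the difference was 2.96, and leaving out any other array kept it between 2.81 and 3.83. With another background correction (normexp with an offset, which compresses dim probes) it was 0.54.

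The second Tnc probe showed a smaller difference in SPRET/EiJ. It read -7.47, -7.39 and -5.87 in sham tissue, on no array well above background. It read -4.58, -5.67 and -6.39 in LDIR tissue, well above background only in mouse A. These groups overlapped, the means differed by 1.36 and the floored rise was 1.06-fold. Without mouse A the difference was 0.88. No count of member probes past the thresholds is given for SPRET/EiJ, since the comparison chose the gene. Among the 12 probes the first Tnc probe had the largest difference and the second Tnc probe the next largest. The other genes are given here as differences of means without a test. Spp1 differed by -0.91, Tnxb by -0.65, Thbs2 by -0.63, Sparc by -0.37 and -0.53 on its first and second probe, Fn1 by -0.38, Thbs1 by -0.33, Postn by -0.32, Cyr61 by -0.25 and Ctgf by 0.33. Without LDIR mouse A the differences of Postn and of the first Sparc probe turned to 0.20 and 0.13, and those of Tnxb, Thbs2 and Fn1 were each -0.18, of the second Sparc probe -0.01 and of Cyr61 -0.03. The Spp1 difference turned to 0.70 without sham mouse A.

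**Figure D1:**
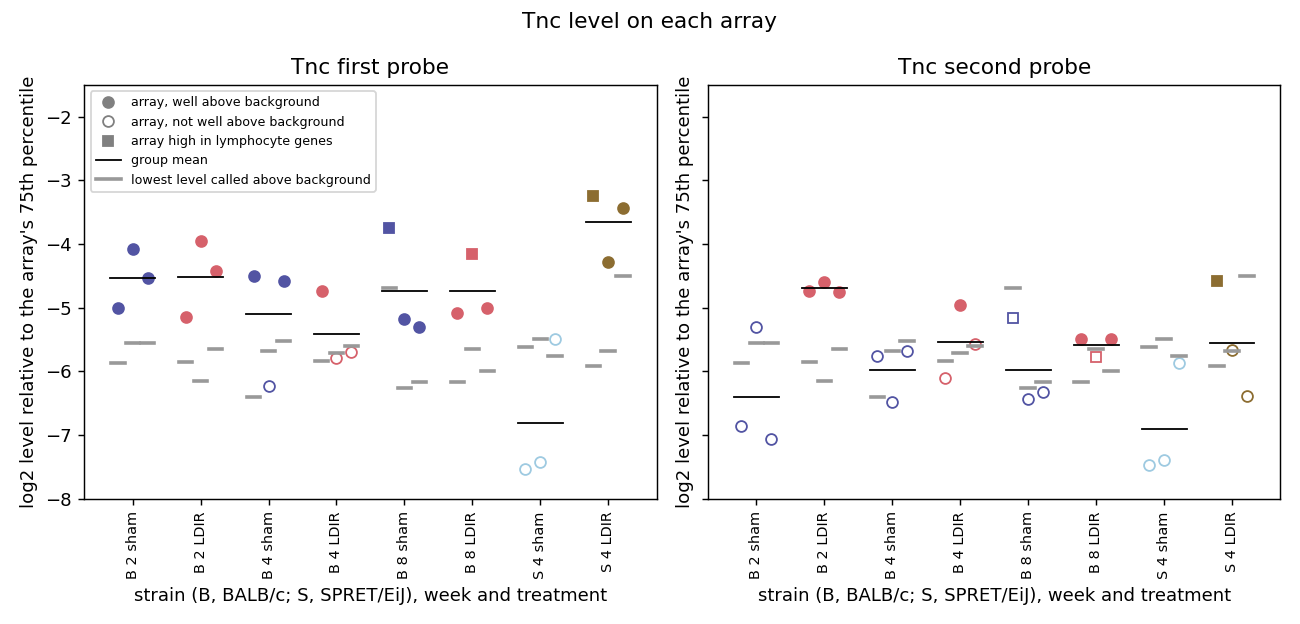
Level of both Tnc probes on each of the 24 arrays (y axis, log2 relative to the array's 75th percentile) by strain, week and treatment. Filled symbols are well above background, squares are the 3 arrays high in lymphocyte genes, black lines are group means and grey lines the lowest level called well above background on that array. The first probe stands at -3.25 to -4.28 in SPRET/EiJ LDIR tissue against -5.49 to -7.53 in SPRET/EiJ sham tissue.

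In BALB/c the first Tnc probe did not follow this pattern. At 2 weeks it read -5.01, -4.07 and -4.53 in sham tissue and -5.15, -3.96 and -4.43 after LDIR, so that the groups overlapped. The log2 change was 0.03 (limma, 95% interval -0.87 to 0.93). At 4 weeks it read -4.50, -6.23 and -4.58 in sham tissue and -4.74, -5.80 and -5.69 after LDIR, a change of -0.31 (limma, 95% interval -1.60 to 0.98), and mouse B of the sham group and mice B and C of the LDIR group were not well above background. At 8 weeks it read -3.74, -5.18 and -5.30 in sham tissue and -5.08, -4.16 and -5.00 after LDIR, and the change was 0.00 (limma, 95% interval -1.27 to 1.26). The highest array of each 8 weeks group was the one high in lymphocyte genes, and without both the change was 0.20 (limma, 95% interval -0.28 to 0.69).

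The second Tnc probe rose in BALB/c at 2 weeks. It read -6.86, -5.30 and -7.07 in sham tissue, with no array well above background, and -4.74, -4.59 and -4.76 after LDIR, with all 3 arrays well above background. Every LDIR array lay above every sham array, and the 3 LDIR arrays were close together. The log2 change was 1.71 (standard error 0.46, 95% interval 0.59 to 2.83, unadjusted p = 0.00941 and adjusted p = 0.894 from limma), or 1.84-fold as a floored rise. With normexp the change was 0.15 (limma, unadjusted p = 0.359), which ends the call. At 4 weeks this probe read -5.76, -6.48 and -5.68 in sham tissue and -6.11, -4.95 and -5.57 after LDIR. At 8 weeks it read -5.16, -6.43 and -6.33 in sham tissue and -5.48, -5.77 and -5.49 after LDIR. Both later comparisons overlapped, with changes of 0.43 (limma, unadjusted p = 0.275) and 0.39 (limma, unadjusted p = 0.363). Without the arrays high in lymphocyte genes the 8 weeks change was 0.89 (limma, unadjusted p = 0.00632), and with normexp it was -0.13.

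Pooled over the 3 weeks, with week in the model, the second Tnc probe was higher after LDIR in BALB/c by 0.84 (standard error 0.29, unadjusted p = 0.00919 and adjusted p = 0.997 from limma, 9 against 9 arrays). The floored rise was 1.29-fold, with 6 of 9 LDIR arrays and 0 of 9 sham arrays well above background. The change was 1.60 on the first slide (3 against 5 arrays) and 0.37 on the second (4 against 4 arrays). It was 0.78 with slide as a block (limma, unadjusted p = 0.076) and 0.00 with normexp, neither past the thresholds. Without the arrays high in lymphocyte genes it was 1.03 (limma, unadjusted p = 0.00223). The first Tnc probe changed by -0.09 in the same pooled fit (limma, 95% interval -0.71 to 0.52). Of the 12 probes, 1 was called higher and 0 lower, beside 0.275% and 0.805% of all probes.

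Over the 8 groups the first Tnc probe was highest in SPRET/EiJ LDIR tissue, followed by BALB/c at 2 weeks with LDIR (-4.51 ± 0.60) and sham (-4.54 ± 0.47), at 8 weeks with sham (-4.74 ± 0.87) and LDIR (-4.74 ± 0.51), at 4 weeks with sham (-5.10 ± 0.97) and LDIR (-5.41 ± 0.58), and SPRET/EiJ sham tissue (all SD, n = 3). All 7 pairs of neighbors in that order overlapped. For the second probe 6 of 7 neighboring pairs overlapped, the exception being BALB/c LDIR at 2 weeks (-4.70 ± 0.09) above BALB/c LDIR at 4 weeks (-5.55 ± 0.58). The 2 probes followed each other across the 24 arrays with r = 0.580, which fell to 0.279 without the 2 arrays farthest from the median of the second probe. The probes of other genes most like the first Tnc probe, of 23008 searched over the same arrays, were those of Smarcd2 (r = 0.80), Hipk1 (r = 0.79), Maz (r = 0.76), Gabbr1 (r = 0.74) and Rab8a (r = 0.72). These likenesses describe arrays that share groups and slides.

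Tnxb, the tenascin that organizes collagen fibrils, was strongly detected on every array and behaved differently from Tnc. At 4 weeks in BALB/c it read 2.44, 2.26 and 2.63 in sham tissue and 2.80, 3.66 and 3.04 after LDIR. All LDIR arrays lay above all sham arrays, mouse B by the most. The sham mean (2.44) was the lowest of the 8 groups, while the LDIR mean (3.17) stood near that of 2 weeks sham tissue (3.07). The log2 change was 0.72 (standard error 0.26, 95% interval 0.10 to 1.35, unadjusted p = 0.0296 and adjusted p = 0.783 from limma), a 1.65-fold rise. On slide 2 alone, with 3 LDIR arrays and 1 sham array, the change was 0.54. With slide as a block it was also 0.54, which is the same estimate, since only slide 2 holds both treatments at 4 weeks. Leaving out sham mouse A or B, or LDIR mouse B or C, ended the call, with changes from 0.48 to 0.79 and unadjusted p = 0.0503 to 0.0832 (limma). The call also ended in the fit of all 24 arrays (limma, unadjusted p = 0.117).

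Thbs2, which encodes thrombospondin 2, an inhibitor of blood vessel growth that also shapes collagen fibrils, moved beside Tnxb at 4 weeks without passing the threshold. It read 1.33, 0.26 and 0.89 in sham tissue and 1.38, 2.35 and 1.44 after LDIR, again without overlap but with the lowest LDIR array close to the highest sham array. Its sham mean (0.82) was the lowest of the 8 groups too. The log2 change was 0.90 (standard error 0.37, unadjusted p = 0.0503 from limma), and it passed with normexp (change 0.80, limma unadjusted p = 0.0304) and without sham mouse A (change 1.15, limma unadjusted p = 0.0285). Of the 12 probes, Tnxb was the 1 called higher at 4 weeks and 0 were lower, beside 3.37% and 1.42% of all probes. Macrophage markers moved in the same comparison, with 3 of 6 genes past the thresholds and higher. Their mean level relative to that over 24 arrays ranged from -0.79 to -0.16 in sham tissue and from 0.00 to 0.46 after LDIR, and none of the 6 was below background on all arrays of a group. The milk protein genes ranged from -1.62 to -0.91 in sham tissue and from -0.66 to 1.26 after LDIR, with 2 of 6 higher. Of these 6 genes 1 was below background on all sham arrays. The myoepithelial markers ranged from -0.02 to 0.32 and from -0.55 to -0.02, with 2 of 8 lower. The nerve sheath markers ranged from -0.55 to -0.11 and from -0.16 to 0.76, with 1 of 4 higher. The fibroblast markers, with 0 of 8 past the thresholds, ranged from -0.48 to 0.15 and from 0.02 to 0.33. The part of these lists in the Tnxb and Thbs2 levels was not tested.

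At 2 weeks Tnxb read 2.91, 3.58 and 2.73 in sham tissue and 2.67, 3.34 and 2.46 after LDIR, and at 8 weeks 1.89, 3.36 and 3.35 against 3.37, 2.35 and 2.96. Each LDIR array of 2 weeks was below the sham array of the same letter. The changes were -0.25 (limma, 95% interval -1.02 to 0.53, and -0.59 to 0.10 with the letters as pairs) and 0.03 (limma, 95% interval -1.23 to 1.28). The low array of each 8 weeks group was the one high in lymphocyte genes, and without both Tnxb changed by -0.19 (limma, 95% interval -0.80 to 0.41). Thbs2 changed by 0.09 at 2 weeks (limma, 95% interval -0.77 to 0.95) and by -0.16 at 8 weeks (limma, 95% interval -1.16 to 0.83).

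Postn, the gene of periostin, which helps cross-link collagen, was lower in BALB/c 2 weeks after LDIR. It read 5.24, 5.48 and 5.61 in sham tissue and 4.92, 4.79 and 4.81 after LDIR, so every LDIR array was below every sham array and the LDIR arrays were close together. The log2 change was -0.60 (standard error 0.16, 95% interval -0.98 to -0.23, unadjusted p = 0.00758 and adjusted p = 0.894 from limma), 1.52-fold and so just past the fold threshold. Leaving out sham mouse B or C or LDIR mouse B brought it under that threshold, with changes of -0.58, -0.52 and -0.58 and unadjusted p = 0.0276 to 0.0298 (limma). In the fit of all 24 arrays, where every group shares 1 estimate of the spread, the unadjusted p of Postn was 0.249. At 2 weeks 1 of the 12 probes (Tnc second probe) was called higher and 1 (Postn) lower, beside 2.25% and 0.876% of all probes. Postn changed by 0.08 at 4 weeks (limma, 95% interval -0.44 to 0.59) and by -0.03 at 8 weeks (limma, 95% interval -1.72 to 1.65), where sham mouse A at 3.38 lay far below the other sham mice at 5.83 and 5.13. Without both 8 weeks arrays high in lymphocyte genes Postn changed by -0.42 (limma, 95% interval -1.32 to 0.48).

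Sparc, a collagen-binding protein of remodeling tissue, and Fn1, the gene of fibronectin, the adhesive protein on which much of the matrix is built, passed the thresholds in none of the BALB/c comparisons. The first Sparc probe changed by 0.03, 0.25 and -0.13 at 2, 4 and 8 weeks and the second by -0.16, 0.25 and -0.18, with limma intervals that all included 0. Fn1 read 5.89, 6.13 and 5.72 in sham tissue at 2 weeks and 6.11, 5.39 and 4.76 after LDIR, a change of -0.49 (limma, 95% interval -1.33 to 0.35). At 4 weeks it changed by 0.48 (limma, 95% interval -0.53 to 1.49) and at 8 weeks by -0.30 (limma, 95% interval -1.62 to 1.03). Without 8 weeks sham mouse A the last change was -0.86 (limma, unadjusted p = 0.0406), past the thresholds, and without both arrays high in lymphocyte genes it was -0.65 (limma, unadjusted p = 0.0579), not past them. Fn1 also passed at 2 weeks without LDIR mouse A.

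Ctgf and Cyr61 encode matrix proteins of the CCN family that are classic targets of the YAP and TEAD regulators and are induced within minutes by serum, stretch or injury, as immediate early genes are. Both had their highest group mean in BALB/c LDIR tissue at 8 weeks, 4.00 ± 0.82 for Ctgf and 2.85 ± 0.42 for Cyr61 (SD, n = 3). Ctgf read 2.08, 3.61 and 2.77 in sham tissue and 4.85, 3.21 and 3.93 after LDIR, with mouse A of the LDIR group the highest of all 24 arrays and an overlap through sham mouse B. The log2 change was 1.18 (standard error 0.57, 95% interval -0.22 to 2.57, unadjusted p = 0.0847 from limma), beside a median of -0.14 over all probes. On slide 2, with 1 LDIR array and 3 sham arrays, it was 2.03. With slide as a block it was also 2.03, which is the same estimate, since only slide 2 holds both treatments at 8 weeks. It rests on LDIR mouse A alone, so no call is read from it. Leaving out sham mouse B or LDIR mouse B gave 1.57 in both cases, past the thresholds (limma, unadjusted p = 0.0412 and 0.043). Of these, LDIR mouse B is high in lymphocyte genes, as is sham mouse A, without which the change was 0.81, and without both it was 1.20 (limma, unadjusted p = 0.0598), not past the thresholds. Cyr61 read 0.33, 2.39 and 2.77 in sham tissue and 3.30, 2.48 and 2.77 after LDIR, a change of 1.02 (limma, 95% interval -0.65 to 2.69). It was 0.27 without sham mouse A and 0.46 without both arrays high in lymphocyte genes (limma, 95% interval -0.32 to 1.23).

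The immediate early genes moved in the same 8 weeks comparison, 7 of 14 past the thresholds and higher and 0 lower, with a median log2 change of 0.94 against -0.14 for all probes. Among them Atf3, a stress-induced transcription factor, changed by 2.55 (limma, unadjusted p = 0.0267) and Fosb, a subunit of the AP-1 factor, by 2.52 (limma, unadjusted p = 0.0167), both with an adjusted p of 1.00. Their mean level ranged from -0.07 to 0.92 in sham tissue and from 1.20 to 2.47 after LDIR. At 8 weeks 0 of the 12 member probes were called in either direction by limma (0 also at an unadjusted p under 0.05), beside 0.167% of all probes higher and 1.64% lower. That split over all probes depends on the scaling, with 93 higher and 912 lower probes here and 464 in each direction after quantile normalization, which moved the median of all probes from -0.14 to 0.01 and raised the second Tnc probe past the thresholds (1.12, limma unadjusted p = 0.006).

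Quantile normalization also evened the split in the other LDIR comparisons, from 1255 higher and 488 lower to 771 and 510 at 2 weeks, from 1875 and 789 to 1281 and 1207 at 4 weeks, from 153 and 448 to 320 and 330 over all weeks, and from 892 and 333 to 437 and 629 in SPRET/EiJ. In the BALB/c comparisons among these, the member probes called did not change with it.

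At 2 weeks Ctgf read 1.06, 1.03 and 1.48 in sham tissue and 1.02, 1.13 and 1.60 after LDIR, and Cyr61 read -0.29, 0.13 and 0.56 against 0.36, 0.41 and 0.33. The changes were 0.06 (limma, 95% interval -0.47 to 0.60) and 0.23 (limma, 95% interval -0.33 to 0.80). At 4 weeks single mice spread widely within both groups, Cyr61 from -0.30 to 1.69 in sham tissue and from -0.27 to 2.30 after LDIR, and the changes were -0.22 for Ctgf (limma, 95% interval -1.76 to 1.31) and 0.23 for Cyr61 (limma, 95% interval -1.63 to 2.08). Without 4 weeks sham mouse A, whose Ctgf level was -0.09, the Ctgf change was -0.96 (limma, unadjusted p = 0.0302).

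Thbs1, the gene of thrombospondin 1, which activates latent TGF-beta, passed the thresholds in none of the LDIR comparisons. It changed by -0.30, -0.03 and -0.13 at 2, 4 and 8 weeks in BALB/c, with limma intervals that included 0, and by -0.45 at 8 weeks without the arrays high in lymphocyte genes (limma, 95% interval -1.17 to 0.28). Spp1, the gene of osteopontin, a secreted integrin ligand made by immune cells and by milk-producing epithelium, had the widest spread between mice, with a pooled SD within groups of 1.36 against 0.48 to 0.82 for the other probes. Its changes in BALB/c were 0.26, 0.58 and 0.57 at 2, 4 and 8 weeks, with limma intervals that included 0, and 0.19 at 8 weeks without the arrays high in lymphocyte genes. Spp1 read 0.40, -5.12 and -3.72 in SPRET/EiJ sham tissue, so that 1 group held both its highest and its lowest array.

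**Figure D2:**
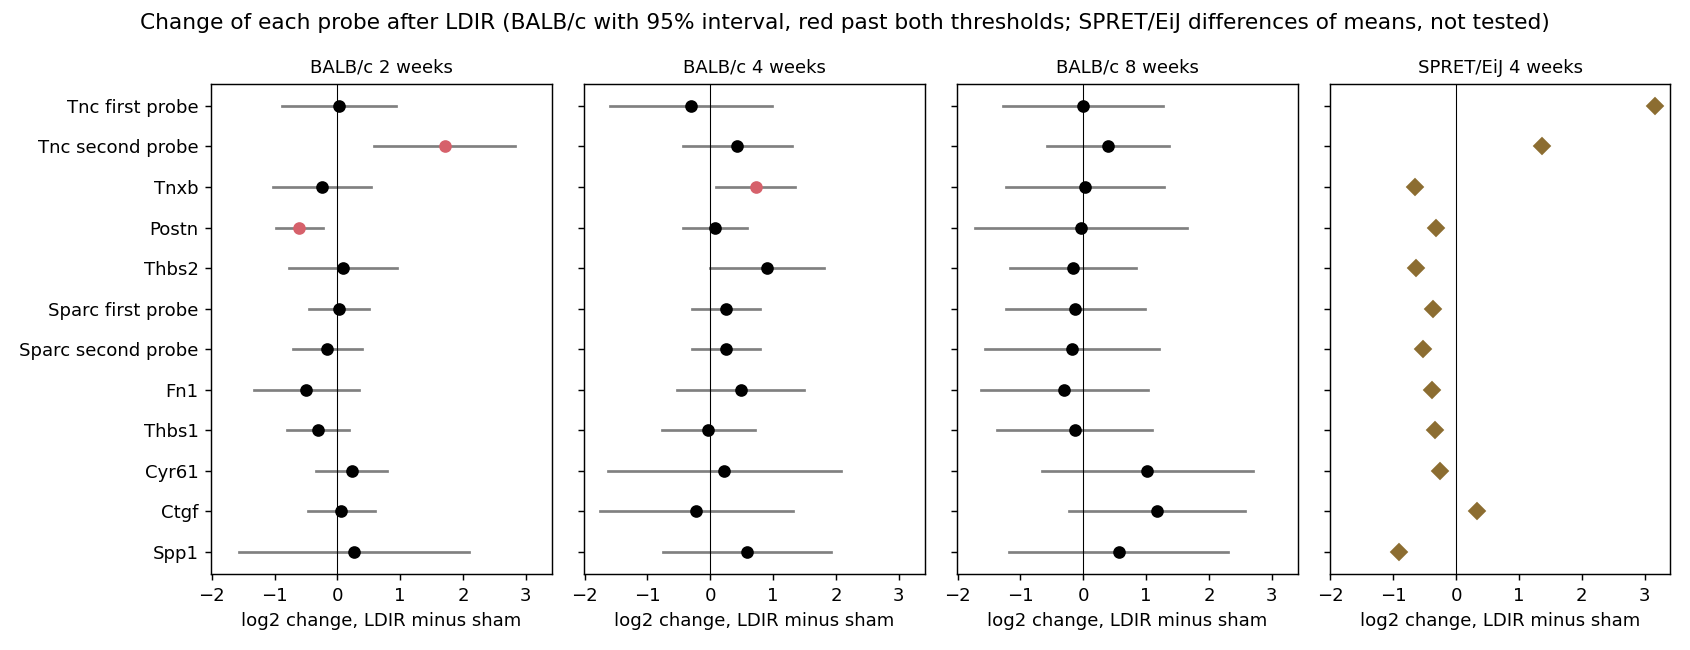
Log2 change of each of the 12 probes after LDIR (x axis, LDIR minus sham) in BALB/c at 2, 4 and 8 weeks with 95% limma intervals, and in SPRET/EiJ at 4 weeks as differences of means without a test. Red points passed both thresholds, namely the second Tnc probe (1.71) and Postn (-0.60) at 2 weeks and Tnxb (0.72) at 4 weeks.

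Tnxb was the 1 member probe past the thresholds between sham tissues of the strains at 4 weeks. It read 2.44, 2.26 and 2.63 in BALB/c and 3.65, 4.36 and 4.50 in SPRET/EiJ, so that every BALB/c array was below every SPRET/EiJ array. These BALB/c mice are the sham group of the 4 weeks LDIR comparison, whose Tnxb mean was the lowest of the 8 groups. The difference, BALB/c minus SPRET/EiJ, was -1.73 (standard error 0.27, unadjusted p = 0.000518 and adjusted p = 0.00732 from limma), a 3.31-fold lower level in BALB/c. Its direction held in all alternatives run, but the unadjusted p rose above 0.001 after quantile normalization (limma, unadjusted p = 0.00194), with the replicate block (limma, unadjusted p = 0.00156) and when any single array other than SPRET/EiJ mouse A was left out (limma, unadjusted p = 0.0017 to 0.00308). The first Sparc probe was lower in BALB/c by an adjusted p of 0.0324 but not by the threshold of 0.001, with 8.68, 8.08 and 8.72 against 9.46, 9.99 and 9.38 and a difference of -1.12 (limma, unadjusted p = 0.00496). The second Sparc probe differed by -0.75 (limma, unadjusted p = 0.0608), also without overlap.

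Postn and Thbs2 leaned the same way between sham tissues without passing. The differences were -1.14 for Postn (limma, unadjusted p = 0.0206, adjusted p = 0.0853) and -1.49 for Thbs2 (limma, unadjusted p = 0.0314, adjusted p = 0.114). Cyr61 differed by -1.18 (limma, unadjusted p = 0.0774), Fn1 by -0.70, Ctgf by -0.59, Thbs1 by -0.26 and Spp1 by 0.12, all with limma intervals that included 0. Of the 12 probes, 0 were called higher and 1 lower in BALB/c, beside 5.43% and 3.42% of all probes, and 2 had an adjusted p under 0.05, beside 18.7% of all probes. Slide 3 held every SPRET/EiJ array and none of the BALB/c sham arrays of 4 weeks, which were on slides 1 and 2. With slide as a block in the 24-array fit Tnxb differed by -2.26. Slides meet there only within BALB/c 4 weeks sham and BALB/c 8 weeks LDIR, each through 1 mouse against 2. No call is read from that estimate. Several marker lists differed too. The macrophage markers ranged from -0.79 to -0.16 in BALB/c and from 0.36 to 0.47 in SPRET/EiJ sham tissue (0 of 6 past the thresholds) and the tendon markers from -0.52 to 0.00 and from 0.17 to 1.00 (0 of 4). The myoepithelial markers ranged from -0.02 to 0.32 in BALB/c and from -1.28 to -0.17 in SPRET/EiJ (2 of 8 higher in BALB/c) and the luminal epithelial markers from -0.19 to 0.86 and from -2.33 to -0.17 (0 of 8). The part of these lists in the strain differences was not tested.

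Between the strains after LDIR, 0 of the 12 probes passed in limma, beside 3.82% of all probes higher and 1.85% lower in BALB/c. At an unadjusted p under 0.05 there were Ctgf at -1.15 (limma, unadjusted p = 0.0428) and Spp1 at 1.61 (limma, unadjusted p = 0.0259), Tnc aside. Tnxb differed by -0.35 (limma, 95% interval -1.46 to 0.75) and Postn by -0.74 (limma, 95% interval -1.83 to 0.35). Both SPRET/EiJ means include mouse A, the array high in lymphocyte genes, at 2.57 for Tnxb and 4.76 for Postn. Without it Postn differed by -1.27 (limma, unadjusted p = 0.000777, adjusted p = 0.0112) and Tnxb by -0.83 (limma, unadjusted p = 0.0397). The 2 groups share no slide, and in the fit of all 24 arrays slides 2 and 3 meet only within BALB/c 8 weeks LDIR. Mouse A of that group lay on slide 2 and mice B and C on slide 3, mouse B being high in lymphocyte genes. With slide as a block there, the differences moved to -1.07 for Tnxb, -1.51 for Postn, -2.43 for Ctgf and -0.81 for Thbs2, which was 0.04 without the block. These shifts rest on 1 array against 2 of BALB/c 8 weeks LDIR, so no call is read from them. Tnc is described only, since its SPRET/EiJ arrays chose it. The first probe was 1.71 higher in BALB/c in sham tissue, a floored fold of 1.35 with 2 of 3 BALB/c arrays well above background, and 1.76 lower in BALB/c after LDIR. The second probe was not well above background on any of the 6 sham arrays and differed by 0.00 after LDIR.

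**Figure D3:**
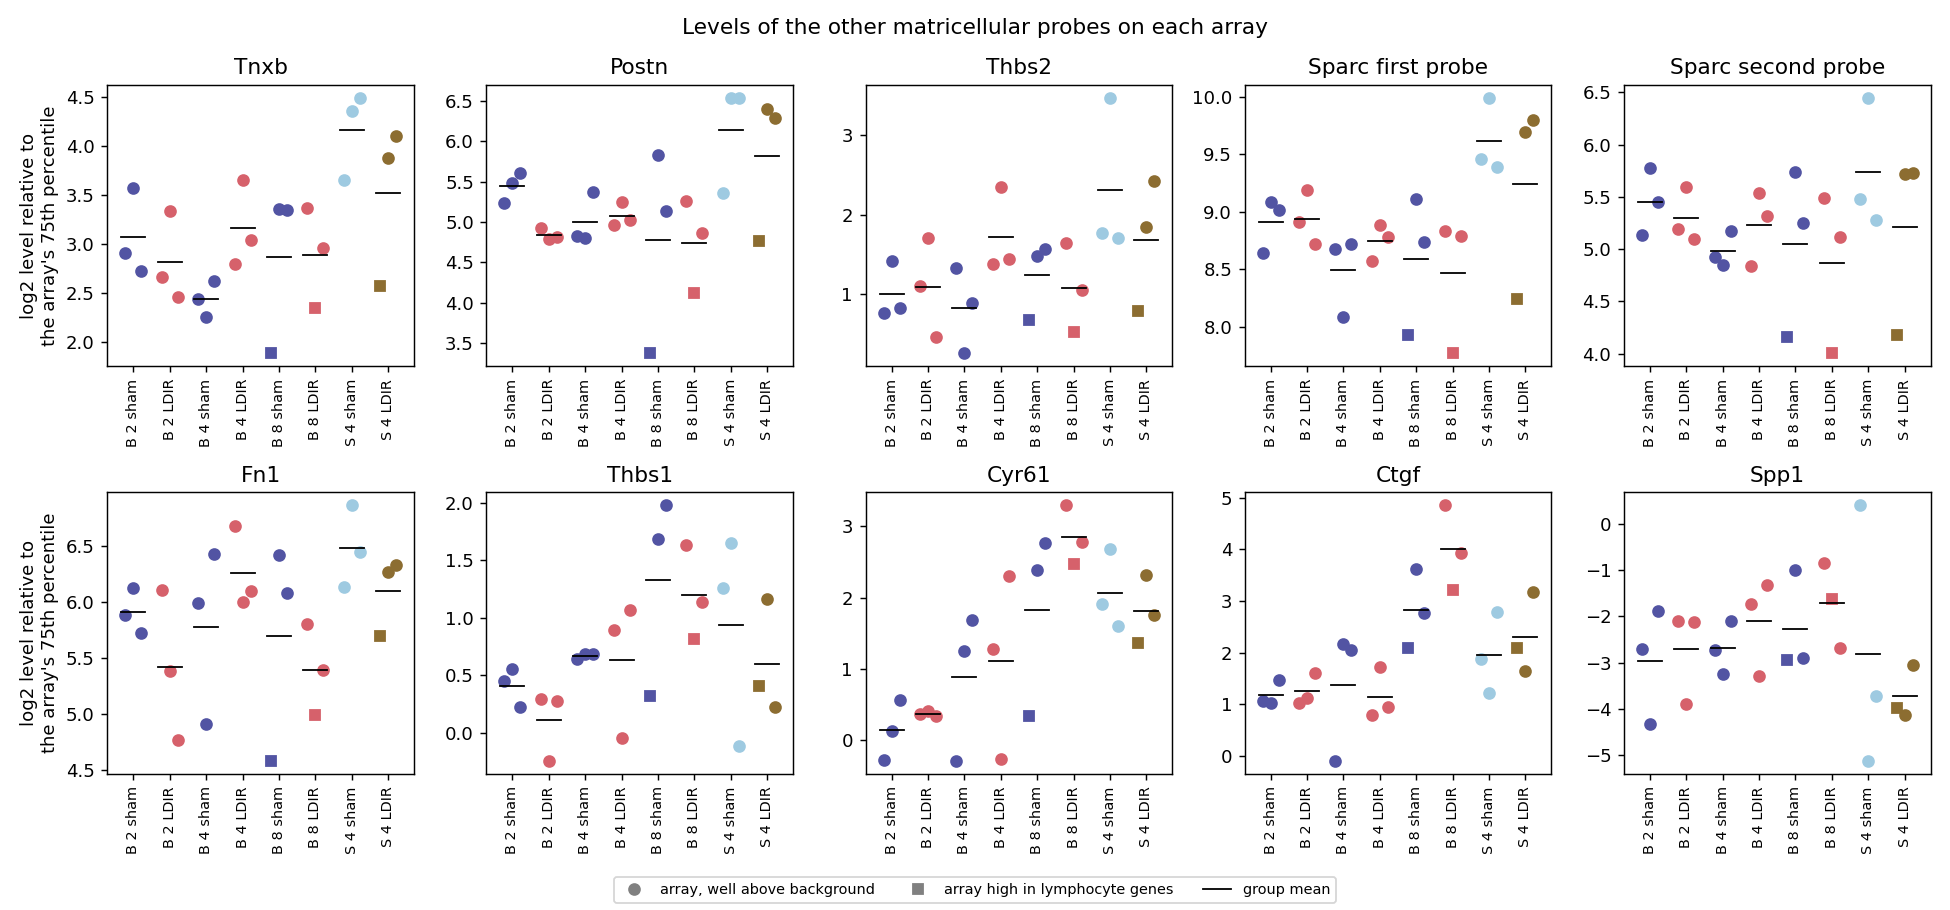
Level of the 10 probes other than Tnc on each of the 24 arrays (y axis, log2 relative to the array's 75th percentile; each panel has its own scale) by strain (B, BALB/c; S, SPRET/EiJ), week and treatment, with lines at the group means. The squares, which are the 3 arrays high in lymphocyte genes, lie lowest in their groups for Tnxb, Postn, Thbs2, Sparc, Fn1 and Cyr61, and SPRET/EiJ sham tissue has the highest Tnxb mean (4.17 ± 0.45).

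In sham BALB/c tissue over 2, 4 and 8 weeks, 0 of the 12 probes passed limma's F-test with a 1.5-fold change between the highest and the lowest week (0 also at an unadjusted p under 0.05), beside 15.9% of all probes. In this paragraph each p-value is of that F-test over the 3 weeks, while differences are 8 weeks minus 2 weeks. The Ctgf level was 1.19 ± 0.25 at 2 weeks and 2.82 ± 0.77 at 8 weeks (SD, n = 3). Its difference was 1.63, and it missed the threshold (limma, unadjusted p = 0.062). Cyr61 differed by 1.70 (limma, unadjusted p = 0.12) and Thbs1 by 0.92 (limma, unadjusted p = 0.116). At 8 weeks sham mouse A, high in lymphocyte genes, was the lowest of its group for all 3. Without it Ctgf (2.00, limma unadjusted p = 0.039), Cyr61 (2.45, limma unadjusted p = 0.00887) and Thbs1 (1.42, limma unadjusted p = 0.000198) passed. Tnxb passed as well (limma, unadjusted p = 0.0242), through the change from 4 weeks (2.44, 2.26 and 2.63) to the remaining 8 weeks mice (3.36 and 3.35), while its difference between 2 and 8 weeks turned from -0.20 to 0.29. The immediate early genes rose in the same comparison, 5 of 14 past the thresholds and 0 lower, with Ier2 at 2.52 (limma, adjusted p = 0.018) and Junb at 2.28 (limma, adjusted p = 0.0231). White adipocyte markers fell, 5 of 6 past the thresholds, with means from 0.30 to 0.61 at 2 weeks and from -0.97 to -0.15 at 8 weeks. Their part in the Ctgf, Cyr61 and Thbs1 levels was not tested. Of the 9 arrays, those of 8 weeks lay on slide 2 and those of 2 weeks on slide 1. With slide as a block Ctgf differed by 0.61 and Cyr61 by 0.48. Slides 1 and 2 meet there only within BALB/c 4 weeks sham, mouse C against mice A and B, and Ctgf in that mouse A was -0.09. No call is read from these estimates.

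Across the 24 arrays the genes fell into sets that rose and fell together. Tnxb followed Postn with r = 0.859 and rho = 0.813 (permutation p = 1e-05 for both, the smallest that 100000 permutations can give, adjusted p = 9.4e-05 over 66 pairs of probes). The coefficient was 0.801 without the 2 arrays farthest from the median of Postn, 0.817 without the 3 arrays high in lymphocyte genes and 0.848 within groups. Tnxb followed Thbs2 (r = 0.846, rho = 0.903) and the first Sparc probe (r = 0.870, rho = 0.862) as closely, with the same permutation p. Between the 2 Sparc probes r was 0.895, and 0.951 within groups. Fn1 followed the fibroblast markers with r = 0.786 and rho = 0.730 (permutation p = 1e-05 and 9e-05, adjusted 0.000456 and 0.00152 over 228 relations of a probe and a list). It was 0.778 without the 2 farthest arrays and 0.834 within groups. These arrays share groups and slides, so they are not 24 independent draws.

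Cyr61 followed the mean of 14 immediate early genes more closely than any other list, with r = 0.860 and rho = 0.887 (permutation p = 1e-05, adjusted 0.000456 and 0.00076 over 228 relations). The coefficient was 0.848 without the 2 farthest arrays and 0.829 within groups. Ctgf followed the same list with r = 0.793 and rho = 0.657 (permutation p = 2e-05 and 0.00075, adjusted 0.000456 and 0.00777), but within groups with r = 0.376. For Thbs1 r was 0.700 (rho = 0.741, permutation p = 0.00012 and 7e-05, adjusted 0.00137 and 0.00133) and 0.638 within groups. Cyr61 and Ctgf followed each other with r = 0.676 (rho = 0.622, permutation p = 0.00024 and 0.00144), and within groups with r = 0.273.

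Spp1 followed the milk protein genes, caseins, Wap and Lalba, with r = 0.727 and rho = 0.677 (permutation p = 3e-05 and 0.00042, adjusted 0.000526 and 0.00504 over 228 relations). It was 0.537 without the 2 farthest arrays and 0.757 within groups. The milk protein mean stood highest at 5.92 in SPRET/EiJ sham mouse A, whose Spp1 level of 0.40 was the highest of all arrays, and next at 4.10 in BALB/c 8 weeks sham mouse B, whose Spp1 level of -0.99 was the highest of its group. In SPRET/EiJ LDIR tissue 2 of these 6 genes were below background on all arrays.

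**Figure D4:**
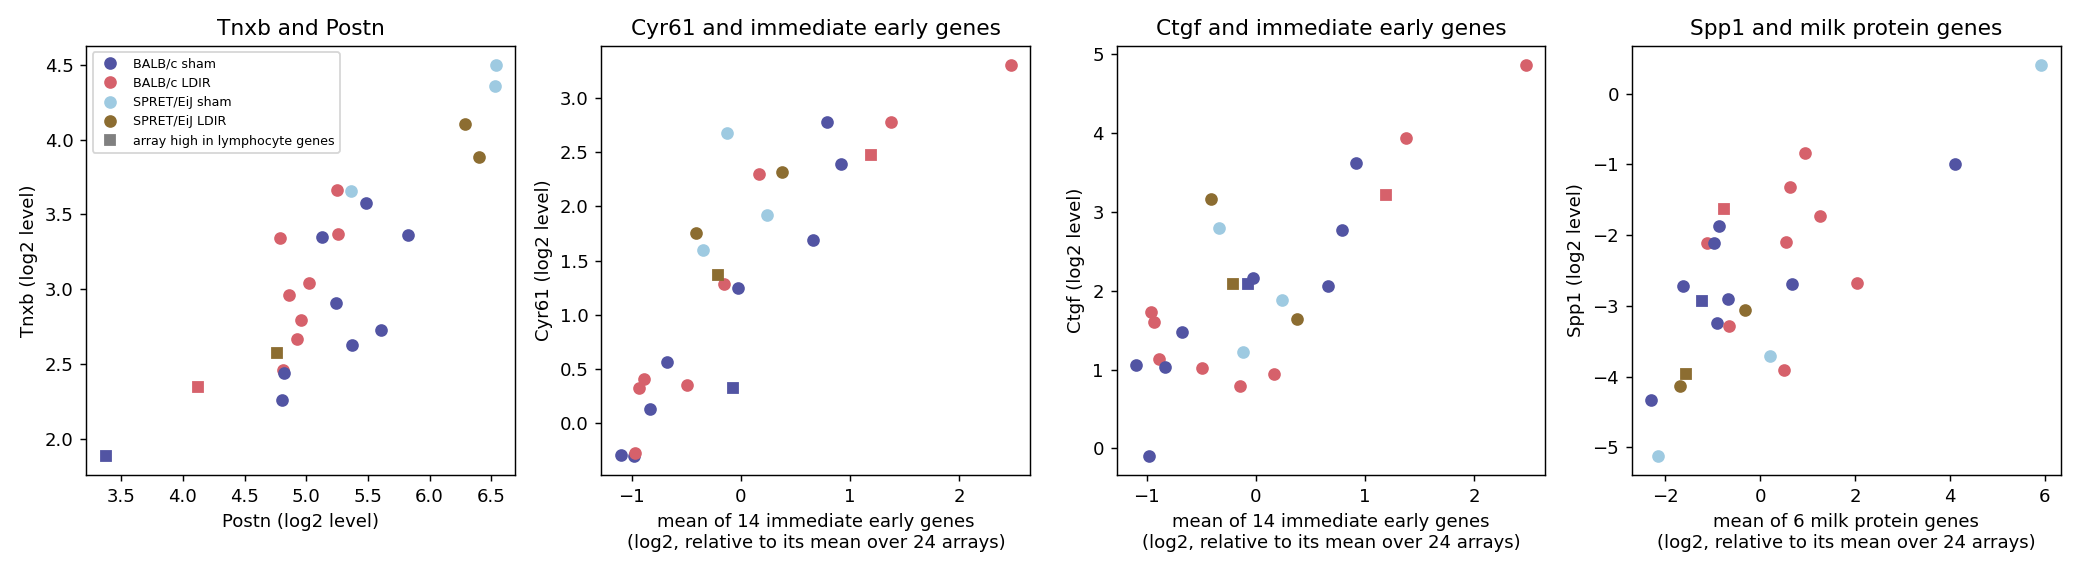
Tnxb against Postn, Cyr61 and Ctgf against the mean of 14 immediate early genes, and Spp1 against the mean of 6 milk protein genes, each over the 24 arrays (log2 levels, list means relative to their mean over the arrays). Squares are the 3 arrays high in lymphocyte genes, and the coefficients over all arrays were 0.859, 0.860, 0.793 and 0.727 from left to right.

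The start of Cyr61 is shown because its level moved with immediate early genes. The RefSeq sequence of the 250 bases before the start site of Cyr61 (Ccn1 in RefSeq), GRCm38.p6, chr3:145649986-145650235, minus strand, holds in capitals a match to CATTCC, the core read by TEAD factors, and a match to TGACG, the core of the CRE motif, on its reverse strand.
Cyr61 promoter: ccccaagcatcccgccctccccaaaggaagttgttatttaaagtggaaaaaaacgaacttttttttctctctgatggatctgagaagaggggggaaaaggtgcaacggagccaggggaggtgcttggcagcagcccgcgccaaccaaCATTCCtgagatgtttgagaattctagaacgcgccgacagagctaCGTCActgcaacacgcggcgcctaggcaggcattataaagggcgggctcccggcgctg
Counted from the start site, the first match begins at base -103 and the second at base -58. Searched on both strands, CATTCC occurs in 12.6% and TGACG in 17.8% of 32851 RefSeq promoters of that length, so these letters are common. No match to the AP-1 letters TGANTCA (6.75% of promoters) or to the CArG box (1.47%) is in this window. These matches describe the sequence and say nothing of binding in these tissues.

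The difference of LDIR effects was tested directly in 1 fit of all 24 arrays. Between SPRET/EiJ and BALB/c at 4 weeks, and between BALB/c weeks, 0 member probes had an adjusted p under 0.05 in limma. At an unadjusted p under 0.05 the LDIR effect in SPRET/EiJ minus that in BALB/c was -1.53 for Thbs2 (limma, unadjusted p = 0.0449) and -1.38 for Tnxb (limma, unadjusted p = 0.0403), 2 of the 1796 probes of 55680 with such a p. The BALB/c 4 weeks sham mice, lowest of the 8 groups for both genes, enter these differences. Without the arrays high in lymphocyte genes the difference was -0.90 for Tnxb (limma, unadjusted p = 0.0587) and -1.09 for Thbs2 (limma, unadjusted p = 0.13). Between BALB/c weeks 0 member probes had an unadjusted p under 0.05. For the first Tnc probe the difference was 3.47, a description only.

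Other matrix genes were read from lists drawn up with earlier results in view. After LDIR at 4 weeks in BALB/c, 3 of 24 other matricellular genes were higher and 0 lower, with a median of 0.15 against 0.02 for all probes, beside 3.37% of all probes called higher and 1.42% called lower. They included Spock1, a proteoglycan of the Sparc family (0.76, limma unadjusted p = 0.0287), and Wisp2, a CCN gene like Ctgf (0.67, limma unadjusted p = 0.0397). Of 20 elastic fibre and proteoglycan genes 1 was higher, Ogn, the collagen-binding proteoglycan osteoglycin (1.29, limma unadjusted p = 0.00328), with a median of 0.37. Of 19 TGF-beta and YAP response genes 2 were lower, Ltbp2 (-0.67, limma unadjusted p = 0.0183) and Skil (-0.60, limma unadjusted p = 0.0287), and of 14 immediate early genes Jun was lower (-0.85, limma unadjusted p = 0.0244). None of these had an adjusted p under 0.05, the values being 0.685 for Ogn and 0.783 for the others. Of 27 matrix receptors and 21 matrix proteases and inhibitors 0 passed in limma at 4 weeks.

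At 2 weeks 1 of 27 matrix receptors passed, Itga2, an integrin chain that binds collagen (0.75, limma unadjusted p = 0.022, adjusted p = 0.894). Genes of the other 5 lists did not pass there. Of all probes 2.25% were called higher and 0.876% lower at 2 weeks. At 8 weeks, besides the immediate early genes, 1 of 21 proteases and inhibitors was lower, beside 1.64% of all probes. In SPRET/EiJ, as a description, Tnr, the tenascin of the nervous system, was -1.49 after LDIR, with 1 of 3 LDIR arrays well above background. Plau, the urokinase protease, was -1.01, and 0 other genes of the 6 lists passed. Of all probes 0.598% were called lower in that comparison. Integrin chains that bind tenascin-C and osteopontin, Itgb3 and Itga9, were higher in sham BALB/c than in sham SPRET/EiJ tissue by 2.12 and 1.04 (limma, adjusted p = 0.00149 and 0.00997), as 2 of 27 receptors were, beside 5.43% of all probes. Lower were 3 of 27, beside 3.42%, among them the collagen receptor chains Itga1 (-2.23, limma adjusted p = 0.001) and Itga2 (-1.45, limma adjusted p = 0.00779).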

How the data were processed

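RNA of 24 mice was measured on single-colour Agilent arrays, 8 on each of 3 slides. Scanner intensity values were deposited by the authors and, per the file headers, had been background-subtracted by Feature Extraction 10.10.1.1. The authors also deposited log2 values normalized to the 75th percentile, of which 99.9% lay within 0.01 of values made here with outlier spots kept, once array offsets and probe medians were removed. For the results, outlier spots were left out, the 75th percentile of each array was subtracted from the log2 intensities, and repeated spots were averaged. No spot was saturated. The share of probes well above background (58.2% to 73.4%) limits what can be said of dim ones. The files gave coordinates on mm9, and 10 of 10 genes matched RefSeq.

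Groups came from the sample labels. Each comparison was fitted to its own arrays with limma (version 3.58.1, R 4.3.3), with the thresholds of the methods and Benjamini-Hochberg adjustment over all probes. Figures used matplotlib 3.10.9. The procedure was tested on simulated data. The members and lists were chosen with earlier results of these data known. Every probe of a member is named, and from each list at most 2 genes per direction with the largest fitted change past the thresholds and well above background on every array of the group where it was higher. A gene with several probes is given in lists by the brighter one. One gene that this rule would name is not reported here.

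The groups use the same letters A to C. Same-letter arrays deviated together at 2 weeks (correlations of 0.141, 0.442 and 0.101), so there they count as pairs on these values alone. Alternatives were normexp (offset 50), the authors' log2 values, quantile normalization, keeping outlier spots, testing detected probes only, fitting all 24 arrays together, blocking on replicate or on slide, the methods' test and leaving out each array. Leaving out the arrays high in lymphocyte genes, and the alternatives for the differences of LDIR effects, were chosen after seeing the data.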

Additional observations from a re-analysis of the deposited data

How the results depend on the processing

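The number of member probes past the thresholds rests on few arrays and moved with the settings, as follows. In SPRET/EiJ after LDIR no number is given, since that comparison chose Tnc. In BALB/c at 2 weeks it was 2, with 1 under normexp and in the 24-array fit, and 1 to 3 leaving out each array. At 4 weeks it was 1, with 2 under normexp and with detected probes only, 0 in the 24-array fit, in the methods' t-test and with the replicate block, and 0 to 2 leaving out each array. At 8 weeks it was 0, with 1 after quantile normalization and without the arrays high in lymphocyte genes, and 0 to 2 leaving out each array. With slide as a block the 4 weeks fit rests on 1 sham array and the 8 weeks fit on 1 LDIR array, and the strain and time fits link slides through those arrays. Their counts are not given. Over all weeks it was 1, with 0 under normexp and with slide as a block. Between sham strains it was 1, with 0 in the methods' t-test, with the replicate block and after quantile normalization, and 0 to 1 leaving out each array. Between LDIR strains it was 0, and 0 to 1 leaving out each array. In sham BALB/c over time it was 0, with 2 under normexp, 1 with detected probes only, 2 in the 24-array fit and 0 to 4 leaving out each array. The causes were not tested. With the replicate block the count was 2 at 2 weeks, where letters count as pairs, and Tnxb at 4 weeks had an unadjusted p = 0.0641 in limma. The block changed no other call than that of Tnxb at 4 weeks and between sham strains. For single probes 1435 alternative values kept direction and side of the threshold, 124 changed sign while past the thresholds in neither setting, 27 passed newly, 25 lost the call and 1 changed sign with a call: Tnxb in sham tissue over time was -0.20, and ran from -0.45 to 0.29 leaving out each array, being 0.29 without 8 weeks sham mouse A (limma, unadjusted p = 0.0242). Differences of LDIR effects kept 0 member probes at an adjusted p under 0.05 throughout. The number of arrays and, for Tnc, signal near background limit these results.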

Other observations

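Between sham tissues of the strains, matrix proteases and their inhibitors held large differences. Of 21 such genes 3 were higher and 1 lower in BALB/c, beside 5.43% and 3.42% of all probes. Mmp3, a stromal protease that cuts fibronectin and tenascin-C, was higher by 4.25 (limma, adjusted p = 0.000296). For Mmp9, a gelatinase, 0 of 3 sham arrays of SPRET/EiJ were well above background, and BALB/c was higher by a floored fold of 4.91 (limma without flooring, adjusted p = 0.00296). After LDIR, in other mice, Mmp3 differed by 3.99 (limma, adjusted p = 0.0113). Mmp9 differed by 2.79 (limma, adjusted p = 0.0154, with 1 of 3 SPRET/EiJ arrays well above background). Both comparisons read the same probes, with every SPRET/EiJ array on slide 3 and none of the BALB/c arrays there. Strain, slide and sequence differences under a probe cannot be told apart in either. Among other matricellular genes Igfbp7, which binds insulin-like growth factors, was higher in BALB/c by 2.66 in sham tissue and by 3.26 after LDIR. Of 20 elastic fibre and proteoglycan genes 2 were lower in sham BALB/c, the microfibril gene Mfap4 (-2.18) and the basement membrane gene Nid2 (-1.59), with a median of -0.66 against -0.06 for all probes.

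Fmod, the gene of fibromodulin, which binds collagen, differed by 2.29 in sham BALB/c tissue between 2 and 8 weeks. Tgfbi, a TGF-beta induced matrix protein, differed by 1.28 and Thbs4, a thrombospondin of tendon and muscle, by 1.60. The limma F-test over 2, 4 and 8 weeks gave an adjusted p of 0.0775, 0.128 and 0.184 for these genes. The 2 weeks arrays lay on slide 1 and the 8 weeks arrays on slide 2, so these differences are also between slides. The 4 tendon markers include Fmod, and 1 of the 4 was well above background on no 2 weeks sham array. Their mean ranged from -0.60 to -0.39 over the 2 weeks sham arrays and from 0.15 to 1.20 over the 8 weeks sham arrays. Of the 4, 2 were called and higher, Fmod among them, and 1 had an adjusted p under 0.05 (limma F-test). Of all probes 15.9% were called in either direction. Skeletal muscle markers ranged from -2.13 to 5.50 and from 1.93 to 3.79 over the same arrays, with 0 of 6 past the thresholds. Their part in these differences was not tested.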
